A study of Homo sapiens with 36 samples.

Results

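EZH2 binding after depletion of the long isoform of PHF19 was examined in DU145 cells as the set of all 2408 regions in the authors' deposited table of differential EZH2 binding, out of 7756 regions in the 5 such tables of the series. No region was left out. EZH2 is the catalytic subunit of Polycomb repressive complex 2 (PRC2), which methylates lysine 27 of histone H3 (H3K27me3) at silent developmental genes. PHF19 and its relative MTF2 are Polycomb-like proteins, accessory subunits that bind PRC2 and help bring it to DNA rich in CpG, the dinucleotide in which a cytosine precedes a guanine. Many CpG-rich promoters are unmethylated on DNA and are where PRC2 is commonly found in mammalian cells.

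DU145 is an established line of metastatic prostate cancer cells, grown here in DMEM with fetal bovine serum. Cells carried either a control short hairpin RNA (shCTR) or shPHF19L#4, a hairpin against the long isoform (PHF19L), and EZH2 was precipitated from 2 replicates of each with the same antibody. The table holds a single hairpin in a single cell line, so that from it an effect of the hairpin other than the loss of PHF19L cannot be told apart from that loss. ChIP-qPCR, for which the study also used the hairpin shPHF19L#B, was not analysed here. Neither were counts of fly spike-in reads, which the study used for both EZH2 replicates. The study reports higher EZH2 signal after depletion by both, with ChIP-qPCR done at chosen sites and with both hairpins. For EZH2, the labels name a second antibody, against a fly histone variant used for spike-in, in replicate 1 of both conditions and not in replicate 2. Each region has 1 value per condition, the authors' mean log2 read concentration over both replicates, and no value per replicate, so no spread between replicates can be given and no test was made. The table carries 2 header lines, of which the first names the other condition beside shCTR as input and the second as knockdown; the second, which matches the comparison in the table's title, was used, and every level and change for shPHF19L#4 cells rests on this reading. The control level is the value in shCTR cells, and the change is the value in shPHF19L#4 cells minus the value in shCTR cells, both on the log2 scale. The table holds the regions that passed the authors' P value threshold of 0.05 in this comparison. It gives no read totals, so depth is not known.

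The hairpin is directed against the long isoform, and its sequence is shown because it defines the comparison. Its 21 bases were found in 3 of 8 protein-coding PHF19 transcripts of the annotation and in 0 transcripts of other genes.
shPHF19L#4: gccacacatttgagagcatca

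Stretches of 240 bases from 7 regions are shown next, since regions with the largest change were mostly richer in CpG than those with the smallest. Each is the stretch outside annotated exons with the most CpG dinucleotides in its region, read from the plus strand of GRCh37, with CpG in capitals. The first pair comes from promoters with a large change, ADGRL1 (chr19:14316325-14316564, 40 CpG) and MEX3D (chr19:1568325-1568564, 41 CpG). PAX2 (chr10:102499130-102499369, 27 CpG) had the highest control level, and the region at the start of NPAS3 (chr14:33408573-33408812, 36 CpG) was also among the 10 highest. The internal NPAS3 region (chr14:34201833-34202072, 8 CpG) had the smallest change among the regions that were higher in shPHF19L#4 cells. The region upstream of IGF2BP3 (chr7:23516701-23516940, 1 CpG) was the region that was lower in shPHF19L#4 cells, and the region far from POU3F2 (chr6:98931087-98931326, 2 CpG) had a large change with few CpG.
ADGRL1: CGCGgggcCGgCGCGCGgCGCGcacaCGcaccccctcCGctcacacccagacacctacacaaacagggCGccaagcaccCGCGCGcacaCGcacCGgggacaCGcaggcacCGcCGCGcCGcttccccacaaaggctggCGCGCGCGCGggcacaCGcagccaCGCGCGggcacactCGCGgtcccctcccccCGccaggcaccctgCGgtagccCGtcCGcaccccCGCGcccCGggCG
MEX3D: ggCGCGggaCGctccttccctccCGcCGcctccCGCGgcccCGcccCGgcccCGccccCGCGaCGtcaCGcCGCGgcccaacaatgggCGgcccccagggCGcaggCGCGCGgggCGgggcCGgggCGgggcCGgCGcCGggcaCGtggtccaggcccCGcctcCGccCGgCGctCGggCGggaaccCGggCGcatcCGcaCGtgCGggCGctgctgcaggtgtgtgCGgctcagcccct
PAX2: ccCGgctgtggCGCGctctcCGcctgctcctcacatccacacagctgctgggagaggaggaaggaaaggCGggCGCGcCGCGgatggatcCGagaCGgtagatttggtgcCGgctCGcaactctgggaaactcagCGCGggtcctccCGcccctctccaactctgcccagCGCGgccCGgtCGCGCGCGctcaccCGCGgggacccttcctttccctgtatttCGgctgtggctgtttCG
NPAS3 start: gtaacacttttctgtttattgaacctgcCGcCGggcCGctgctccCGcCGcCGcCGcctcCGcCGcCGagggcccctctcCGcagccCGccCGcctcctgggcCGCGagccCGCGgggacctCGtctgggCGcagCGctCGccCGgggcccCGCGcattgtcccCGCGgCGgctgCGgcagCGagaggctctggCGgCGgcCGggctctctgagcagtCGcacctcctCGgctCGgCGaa
NPAS3 internal: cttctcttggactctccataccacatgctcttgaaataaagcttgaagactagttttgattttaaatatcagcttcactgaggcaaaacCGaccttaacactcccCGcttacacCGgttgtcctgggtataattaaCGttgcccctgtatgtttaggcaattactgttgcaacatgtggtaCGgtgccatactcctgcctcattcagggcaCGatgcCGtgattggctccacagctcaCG
IGF2BP3 upstream: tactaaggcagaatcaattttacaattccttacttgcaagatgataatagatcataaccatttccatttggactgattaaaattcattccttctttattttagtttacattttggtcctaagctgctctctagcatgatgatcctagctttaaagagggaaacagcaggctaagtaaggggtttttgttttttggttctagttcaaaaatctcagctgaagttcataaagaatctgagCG
POU3F2 distal: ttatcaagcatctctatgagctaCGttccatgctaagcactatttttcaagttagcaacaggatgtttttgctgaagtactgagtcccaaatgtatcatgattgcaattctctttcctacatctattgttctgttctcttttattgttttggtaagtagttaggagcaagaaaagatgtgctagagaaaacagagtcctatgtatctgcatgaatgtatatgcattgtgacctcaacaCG

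EZH2 concentration was higher in shPHF19L#4 than in shCTR cells in 2407 of the 2408 regions and lower in 1. The median change was 1.16, a 2.23-fold higher concentration, and the quartiles were 0.96 and 1.36. A change of at least 1, which is a difference of at least 2-fold toward shPHF19L#4, was found in 1708 regions, 70.9% of those in the table, and this share is the background for each list described here. In the other direction, 1 region (0.0415%) passed the same fold. Only 33 regions had a change under 0.5, and 28 had a change of at least 2. The regions covered 8.7 Mb, with a median width of 3063 bp and a range from 643 to 25531 bp. Regions that missed the authors' P value threshold for this same comparison are not in the table. Regions with little change would thus tend to be missing from these counts. Nearly all regions that were kept moved by a similar amount. From this table alone, a shift common to all of them cannot be told apart from a difference in scaling between libraries. The order of the regions is what the following values describe.

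The regions with the largest change were mostly narrow, mostly started from a low control level and lay mostly at CpG-rich promoters. At the promoter of ADGRL1, which encodes a latrophilin adhesion receptor, the level was 2.15 in shCTR and 5.65 in shPHF19L#4 cells, a change of 3.50 and the largest of all. This region, chr19:14315983-14317040, spanned 1058 bp with 10.0 CpG per 100 bp. The promoter of NALF2 on the X chromosome went from 3.20 to 5.86, a change of 2.66, and that of MEX3D, which encodes an RNA-binding protein, from 4.52 to 7.05, a change of 2.53. Promoter regions of SAMD11 (5.96 to 8.48, change 2.52) and of NFATC1, a calcium-regulated transcription factor gene (5.96 to 8.20, change 2.24), differed from the others by starting near the median level of all regions and by a width above the median, 4101 and 4684 bp. FAM149A (2.47), C2orf72 (2.41) and EFCC1 (2.23) were the other promoters among the 10 regions taken as largest, and the ZFPM1 promoter (6.37 to 8.60), with a change equal to that of EFCC1 at 2 decimals, was not taken. The remaining pair lay outside promoters, in the body of IGLON5 (2.25), a gene for a neuronal cell adhesion molecule, and between genes 351 kb from the nearest start site, that of the neural factor gene POU3F2 (2.46). The POU3F2 region stood apart, with a control level of 1.93, the lowest of all regions, and 0.447 CpG per 100 bp. None of the 10 regions overlapped an EZH2 peak called in either shCTR replicate, and 0 of them overlapped a PHF19 region. Of all regions, 50.9% had a peak in neither replicate and 62.9% had no PHF19 region. In the lowest 5th by control level, only 5.11% of regions had a PHF19 region. All of the 10 but SAMD11 and NFATC1 lay in that 5th, so the lack of PHF19 is near what their level gives. The tied ZFPM1 promoter overlapped a peak in replicate 2 and a PHF19 region. The median control level of the 10 was 3.41, against 6.15 over all regions (2.97 against 4.52 per kb of region). Their median CpG density was 9.30, against 5.10 per 100 bp.

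At the other end, the smallest changes gathered at few loci, mostly with a high control level. Of the 10 smallest, 5 lay in NPAS3, which encodes a neuronal bHLH-PAS transcription factor, 2 at IGF2BP3, 2 at SP8 and 1 at ATL1. The region upstream of IGF2BP3, an oncofetal RNA-binding protein gene, was the one with lower EZH2 in shPHF19L#4 cells, with 5.32 in shCTR, below the median level of all regions, and 4.25 in shPHF19L#4, a change of -1.07. It lay at chr7:23515964-23517007, 6.38 kb from the start site, spanned 1044 bp, held 0.0958 CpG per 100 bp and overlapped a control peak in replicate 1 only. Its neighbour, a region of 9069 bp over the IGF2BP3 promoter, had one of the higher control levels, 9.63, and a level of 9.92 after depletion, a change of 0.29. Thus the intergenic region and its neighbour over the promoter differed in direction, and the promoter region changed less than nearly all others. At SP8, a zinc finger factor gene of limb and forebrain development, a promoter region (7.32 to 7.69) and an intergenic region beside it (7.60 to 7.95) changed by 0.37 and 0.35. The region over the shared promoter of ATL1 and MAP4K5 changed by 0.36 from a control level of 9.24, with 1.66 CpG per 100 bp. All 10 regions overlapped a control EZH2 peak in at least 1 replicate, whereas 50.9% of all regions had a peak in neither. Of the 10, 5 had a peak in replicate 1 only, a class with 4.24% of all regions. A peak in both replicates was found for 4 of the 10 and for 19.8% of all regions. Of the 10, 6 overlapped a PHF19 region, against 37.1% of all regions and 83.4% of the highest 5th by control level. The median control level of the 10 was 7.82, or 5.23 per kb. Their median CpG density was 1.08 per 100 bp, opposite to the 10 largest on both measures.

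NPAS3 held 11 regions, and they show the range within a single gene. The region over the start of the gene, chr14:33400070-33410350, had a control level of 10.13 and a level of 11.22 in shPHF19L#4 cells, a change of 1.09 with 4.65 CpG per 100 bp. The other 10 regions lay from 338 to 874 kb downstream of the start and had control levels between 7.14 and 9.34. Their changes ran from 0.28 to 0.52 with a median of 0.40, and their CpG density from 0.534 to 1.23 per 100 bp. No value of these 10 reached that of the start region in either change or CpG density. The widest of them, 17852 bp, had a control level of 9.34 and a change of 0.30, whereas the next widest of them, 9939 bp, had a control level of 8.72 and their largest change, 0.52. The start region and 7 of the 10 others overlapped a control EZH2 peak in replicate 1 only, a class with 4.24% of all regions, 1 of the 10 a peak in both replicates and 2 a peak in neither. The part of the difference between the replicates' peak lists in these values was not tested. The start region had an H3K27me3 peak in both replicates of each condition. Among the 10 others, only the widest had one in both shCTR replicates, against 75.1% of all regions. None of them had one in both shPHF19L#4 replicates, against 84.3% of all regions. Inputs were not analysed here, so the part of background reads in these levels was not tested.

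**Figure D1:**
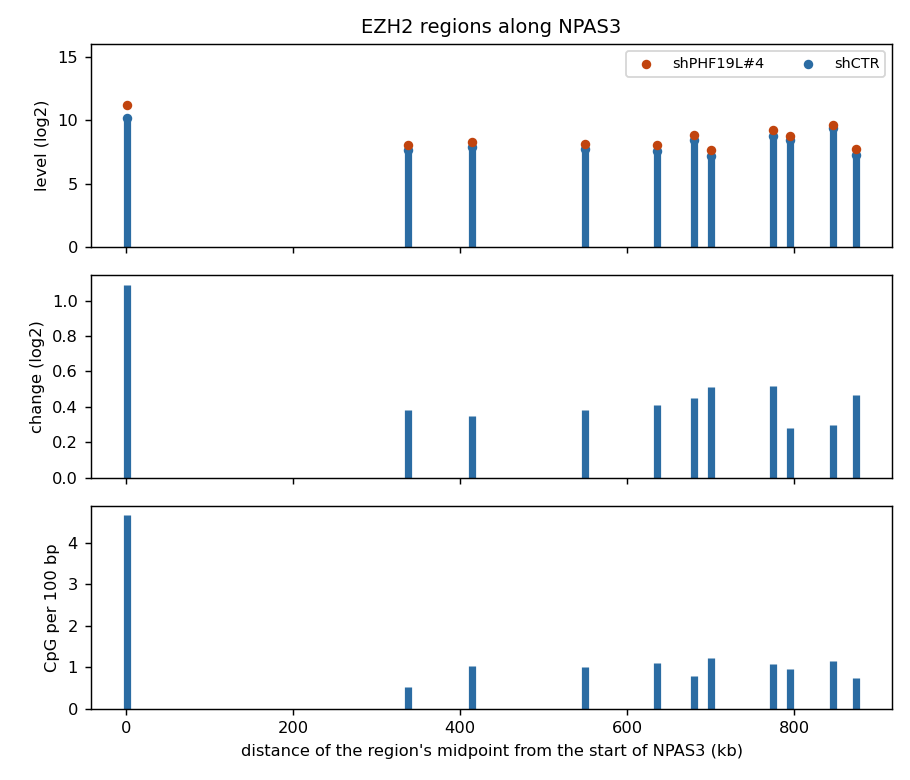
EZH2 regions along NPAS3, by distance of the region's midpoint from the start of the gene in kb. Top, log2 concentration in shCTR (blue bars and points) and shPHF19L#4 cells (red points); middle, change; bottom, CpG per 100 bp. The start region has a change of 1.09, whereas the 10 regions further in lie between 0.28 and 0.52.

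Regions with the highest control level and the widest regions had changes near or below the median. PAX2, a paired box factor gene of kidney development, had the highest control level, 10.24, and 11.25 after depletion, a change of 1.01. The other 9 were NKX2-1 (change 0.89), the start region of NPAS3 (1.09), CBX8 (1.13), TCHH (0.73), LHX2 (0.92), ONECUT3 (1.20), GATA3 (1.03), LBX1 (1.07) and FOXB1 (0.69). Most of these encode transcription factors of the embryo, whereas CBX8 encodes a Polycomb protein that reads H3K27me3 and TCHH a structural protein of hair follicles. All 10 lay at promoters, as did 69.8% of all regions and 81.1% of the highest 5th by control level. Of the 10, 9 overlapped a PHF19 region, against 37.1% of all regions and 83.4% of that 5th. Per kb of region, the start region of NPAS3 (6.77) stood above PAX2 (5.89), since it was about as high over a shorter stretch. The 5 widest regions were those of UNCX (25531 bp, change 1.19), FOXF1 (22130 bp, 1.17), GATA3, ONECUT3 and PAX2, so that 3 of the widest were also among the highest.

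Over all regions, the change was larger where the control level was low. In the lowest of 5 equal groups by control level, from 1.93 to 5.33, the median change was 1.32 and 400 of 489 regions (81.8%) changed by at least 1. The other 4 groups had medians of 1.14, 1.14, 1.12 and 1.11, and the share past the fold ran from 72.0% down to 65.7%. The difference lay between the lowest group and the rest, with little among the rest. Spearman's rho between change and control level was -0.23 over the 2408 regions, which share libraries and are not independent. The control level is part of the change, so the measures are not independent, and with the mean of both conditions in place of the control level rho was -0.09. Without the lowest group it was -0.09 as well. The lower edge of the changes also moved with the level, from 0.79 at the 5th percentile of the lowest group to 0.55 in the highest. Regions that missed the P value threshold are not in the table, so smaller changes at a low level were not seen.

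Width followed the control level, with a rho of 0.91 between them, and the level is not scaled to length. The narrowest 5th of the regions, 643 to 2135 bp wide, had a median change of 1.24, and the widest 5th, 4597 to 25531 bp, had 1.10. The rho between change and width was -0.14. Within the 5 groups by control level, from the lowest, rho was 0.22, 0.27, 0.14, -0.06 and -0.07, so that the sign turned in the lower 3 groups only. Per kb of region, the median control level was 4.16 in the narrowest and 5.02 in the widest group on the log2 scale, so that wide regions were also denser in EZH2 signal.

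Regions at promoters had larger changes than distal ones. A promoter region overlapped 2.5 kb on either side of a protein-coding start site, and 1681 of the 2408 regions (69.8%) did so. The median change was 1.20 at promoters and 1.04 at the 727 distal regions, a difference of 0.16, and 76.9% against 57.1% changed by at least 1. The control level was also higher at promoters, 6.28 against 5.87, a difference of 0.41, or 0.16 per kb of region. Distal regions in a gene body (286, median change 1.05) and between genes (441, 1.03) had close medians. Among distal regions, those with a midpoint beyond 50 kb from a start site had a median of 0.99 and those nearer 1.07. The distal regions with the largest change after those of POU3F2 and IGLON5 lay between genes, at 2.22 and 2.16 near TP53TG3D, a gene in a duplicated part of chromosome 16, and at 2.21 near GOLGA8B on chromosome 15, also in duplicated sequence. Promoters with the smallest change were those of NPAS3 at an internal start site (0.28), IGF2BP3 (0.29), ATL1 (0.36), SP8 (0.37) and AIM2 (0.41), a DNA sensor gene of innate immunity with 1.11 CpG per 100 bp.

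CpG density followed the change more closely than level, width or position did. In 5 equal groups by CpG density the median change was 0.87, 1.10, 1.18, 1.25 and 1.40 from the poorest to the richest. A change of at least 1 was found in 143 of the 482 poorest regions (29.7%) and in 441 of the 482 richest (91.5%). Spearman's rho was 0.56 over all regions, 0.49 at promoters and 0.61 at distal regions. Within groups of like control level its median was 0.55, and in each of the 5 level groups the richest regions had a larger median than the poorest, for example 1.50 against 0.98 in the lowest and 1.32 against 0.79 in the highest. The share of G and C had a rho of 0.61, and within groups of like GC share the median rho for CpG density was 0.20, so that CpG and general base composition were not separated.

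**Figure D2:**
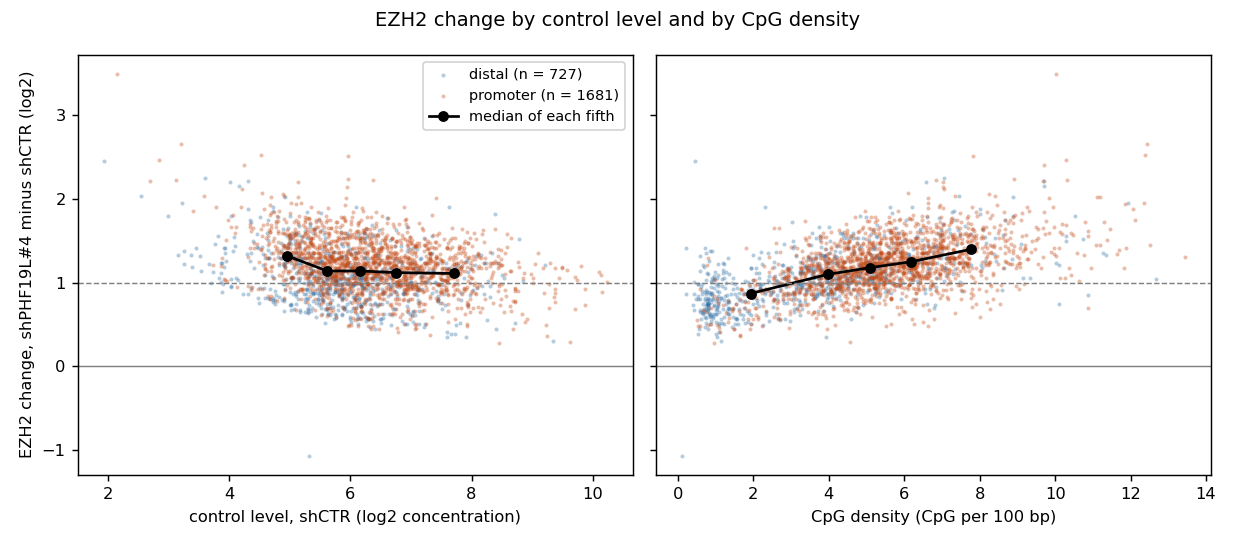
EZH2 change (log2, shPHF19L#4 minus shCTR) of each region against the control level (left, log2 concentration) and CpG density (right, CpG per 100 bp), with promoter regions in red and distal regions in blue. Black points are medians of 5 equal groups, which go from 1.32 to 1.11 with control level and from 0.87 to 1.40 with CpG density; the dashed line marks a change of 1.

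**Figure D3:**
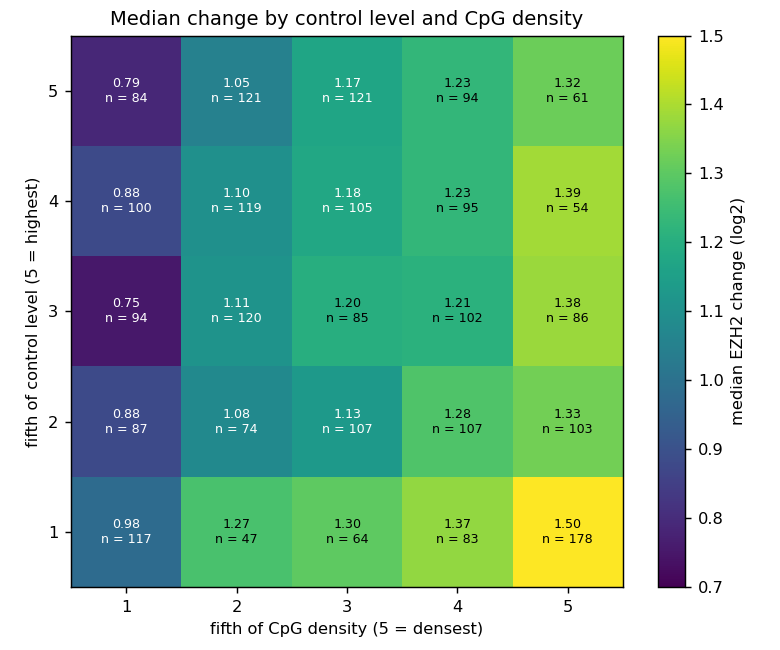
Median EZH2 change (log2, colour and upper number) and number of regions (n) in groups by control level (rows) and CpG density (columns). The poorest column lies between 0.75 and 0.98, and the richest between 1.32 and 1.50.

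The difference between promoters and distal regions was small among regions of like CpG density. From the poorest to the richest group, promoter medians were 0.89, 1.11, 1.18, 1.25 and 1.41, and distal medians were 0.86, 1.08, 1.16, 1.28 and 1.36. The median of the 5 differences was 0.03, compared with 0.16 over all regions. Distal regions were poorer in CpG, with a median of 3.73 against 5.49 per 100 bp. Of 124 genes that had a region at a start site and another elsewhere in the gene, 95 had the higher CpG density at the start site. In 75 of the 124 the CpG-richer position also had the larger change, as at NPAS3. The start site had the larger change in 65 of the 124, and the median difference, start site minus elsewhere, was 0.04.

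**Figure D4:**
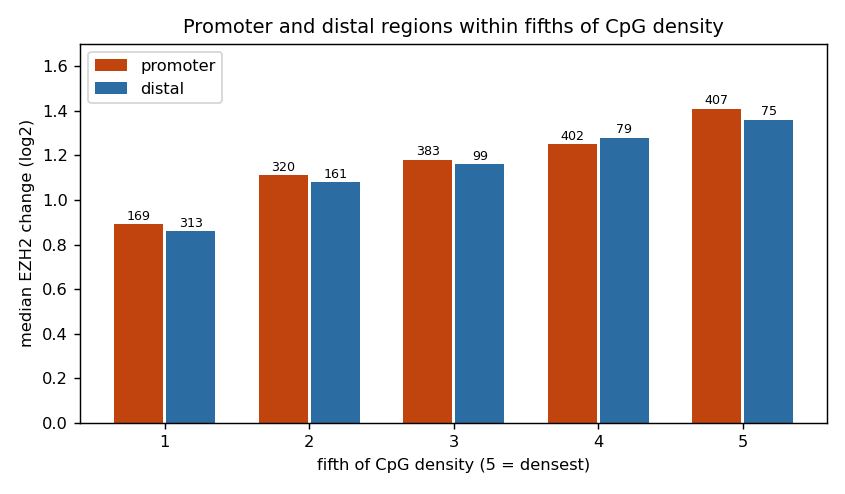
Median EZH2 change (log2) of promoter (red) and distal (blue) regions in 5 equal groups by CpG density, with the number of regions above each bar. Promoter medians go from 0.89 to 1.41 and distal medians from 0.86 to 1.36.

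The control peak lists of the replicates differed in base composition. In shCTR cells the authors called 2060 EZH2 peaks in replicate 1, with a median of 0.745 CpG per 100 bp, and 1236 in replicate 2, with a median of 6.69. Of the replicate 1 peaks, 30.2% overlapped a region of the table, and of the replicate 2 peaks, 93.5%. The 102 regions with a peak in replicate 1 only had a median change of 0.83 and 2.90 CpG per 100 bp, whereas the 604 regions with a peak in replicate 2 only had 1.21 and 5.31. The 476 regions with a peak in both had a median change of 1.09 and a control level of 7.51, and the 1226 regions with a peak in neither had 1.19 and 5.53. Since the levels in the table are means over both replicates, the part of this difference between replicates in the relation of change with CpG density was not tested.

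PHF19 regions of shCTR cells overlapped 894 EZH2 regions (37.1%), and their EZH2 change was smaller. The median was 1.08 with and 1.21 without a PHF19 region, and 63.0% against 75.6% changed by at least 1. Regions with PHF19 had the higher control level, 7.00 against 5.73, or 4.95 against 4.32 per kb, and the overlap went from 5.11% of regions in the lowest to 83.4% in the highest group by control level. In 4 of the 5 level groups the median change was smaller with PHF19, as in the lowest group with 1.11 against 1.33, and in the highest group it was 1.11 against 1.10.

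Genes at which the study measured binding by ChIP-qPCR fell on both sides of the median. ATF3, a stress-induced transcription factor gene, had 8.68 in shCTR and 9.13 in shPHF19L#4 cells, a change of 0.45. DUSP4, which encodes a MAP kinase phosphatase, changed by 0.53 from 8.89, and EGLN3, a prolyl hydroxylase gene of the hypoxia response, by 0.57 from 8.92. Counted from the largest, these 3 changes ranked 2391, 2359 and 2340 of 2408, not far from that of the IGF2BP3 promoter at 2406. MLLT6 changed by 0.74, CYP24A1, which encodes the vitamin D 24-hydroxylase, by 0.92, and IGFBP3, which encodes a binding protein of insulin-like growth factors, by 1.02. A larger change was seen at EFNA3, an ephrin ligand gene (9.10 to 10.46, change 1.36). The study picked its ChIP-qPCR sites as examples of PHF19L binding, with GATA2 as a negative control, so an overlap follows from that choice. Each of these regions overlapped a PHF19 region, and GATA2 had no region in the table. SHH, the Sonic hedgehog gene, had a start region that changed by 1.17 from 8.24, and a region within the gene, without PHF19, that changed by 1.46 from 5.60.

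Of 20149 protein-coding genes, 1923 (9.54%) were overlapped by a region anywhere from 2.5 kb before their start to their end, and developmental gene families had more. Homeobox genes outside the HOX clusters had a region at 82 of 138 genes (59.4%), with a median change of 1.07 over 111 regions, a control level of 6.95 and 73 regions (65.8%) past the fold. POU3F1 had the largest change of this group (1.72) and SHOX2 the smallest (0.48). HOX genes had a region at 12 of 39 genes, with a median change of 1.03, from HOXD11 (1.41) to the HOXB8 promoter region (0.62), which also overlaps HOXB7, and 5 of 10 regions past the fold. FOX genes had a region at 19 of 45, with a median of 1.05, from FOXA3 (1.75) to FOXI3 (0.50), and a control level of 7.54. Per kb of region, the control level was 5.02 in the FOX, 4.70 in the homeobox and 4.46 in the HOX group, against 4.52 over all regions. These transcription factor families thus had medians just under that of all regions, 1.16.

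SOX genes (10 of 19) had a median change of 1.13, from SOX18 (1.51) to SOX2 (0.65), and GATA genes (4 of 6) one of 1.05 over 6 regions. Both ends of the GATA group lay at GATA4, with 1.26 at a promoter region and 0.51 at a CpG-poor region within the gene. Neural bHLH genes (18 of 27) had a median of 1.06, from ATOH8 (1.75) to OLIG1 (0.76), and T-box genes (4 of 16) one of 1.28 over 6 regions, from TBX21 (1.39) to TBR1 (0.92). Counts of 6 regions or so give medians that single regions can move.

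Most groups of signalling and membrane protein genes had medians above that of all regions. Ephrin and Eph receptor genes, which act in contact between cells, had a region at 8 of 22 genes, and all 9 regions passed the fold, with a median of 1.41, from EPHB3 (1.85) to EPHA8 (1.02). Potassium channel genes had a region at 41 of 95, a median of 1.27, and 41 of 50 regions (82.0%) past the fold, from KCNF1 (2.14) to KCNIP1 (0.64). BMP ligands and antagonists (12 of 27) had a median of 1.25, from BMP2 (1.58) to BMP4 (0.84), with 9 of 12 regions past the fold. WNT ligands, receptors and antagonists (17 of 39) had a median of 1.20, from the receptor gene FZD8 (1.84) to the ligand gene WNT3 (0.74). Of their regions, 16 of 19 (84.2%) passed the fold. Hedgehog genes (5 of 10) had 1.17, close to the 1.16 of all regions, with 6 of 9 regions (66.7%) past the fold against 70.9% of all regions, from the receptor gene PTCH1 (1.57) to a CpG-poor region in GLI3 (0.54), which encodes a transcription factor of the pathway.

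**Figure D5:**
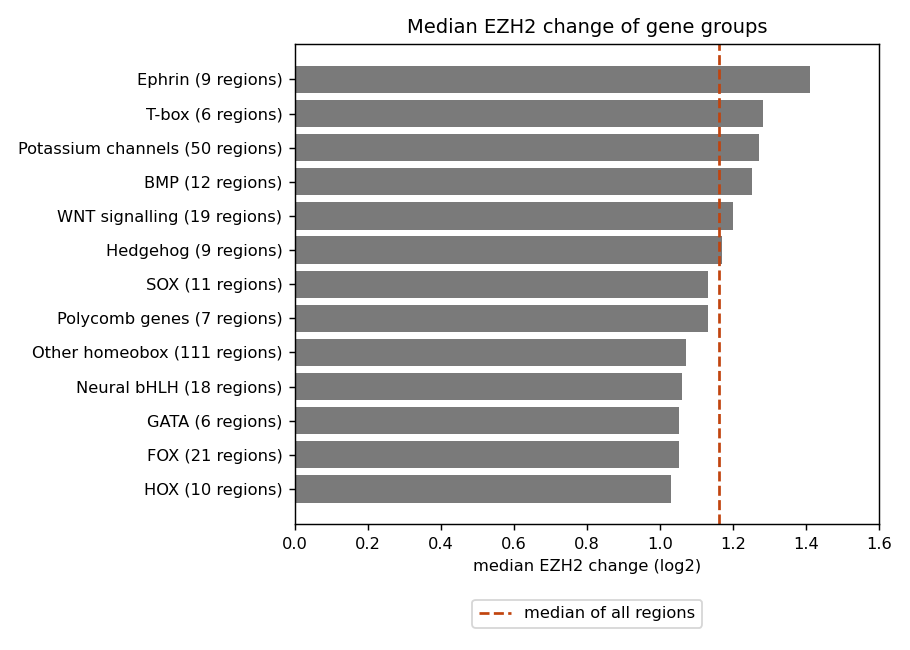
Median EZH2 change (log2) of the regions of each gene group with at least 5 regions, with the number of regions beside its name. The dashed line is the median of all regions, 1.16; the Ephrin group has the highest median, 1.41, and the HOX group the lowest, 1.03.

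Polycomb genes themselves had a region at 6 of 29, with a median change of 1.13 over 7 regions. EPOP, which encodes a PRC2-associated protein, had the largest (6.88 to 8.79, change 1.91), and CBX2, a reader of H3K27me3, the smallest (6.96 to 7.75, 0.79). Clustered protocadherin genes (53) and housekeeping genes (12) had no region in the table. Among marker genes of prostate and epithelial lineages, TMPRSS2, a membrane protease gene, changed by 1.24 from 7.52, and CDH1, the E-cadherin gene, by 1.45 from 5.48. Of the 6 mesenchymal genes, ZEB2 (0.80) and TWIST1 (0.79), both repressors of CDH1, had a region, and neither passed the fold. KLK2, KLK3, EPCAM, KRT8, KRT18, KRT5, KRT14 and TP63 had no region in the table.

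Other subunits were compared at the same regions from their own tables. SUZ12, a core PRC2 subunit, had a table of 508 regions, of which 233 (45.9%) were higher in shPHF19L#4 cells by at least 1, and all 508 overlapped an EZH2 region. They lay at 490 EZH2 regions (20.3%), with a median SUZ12 change of 0.97 and a median EZH2 change of 1.23. By class of EZH2 change, the SUZ12 median was 0.66 under 0.75 (11 regions), 0.77 from 0.75 to under 1, 0.91 from 1 to under 1.25, 1.07 from 1.25 to under 1.5, and 1.27 at 1.5 or more. MTF2 had 2546 regions, of which 730 (28.7%) passed the fold, and 1929 EZH2 regions (80.1%) overlapped one. In the same 5 classes the MTF2 median was 0.61, 0.75, 0.86, 0.97 and 1.13. Changes of both proteins were thus larger where the EZH2 change was larger, and 0 of the overlapping regions of either had a lower level in shPHF19L#4 cells. Over all their regions, with or without an EZH2 region, 7 of 2546 for MTF2 and 0 of 508 for SUZ12 had a lower level. The tables come from separate precipitations and were each filtered by the authors.

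H3K27me3, the product of PRC2, had a table of 1049 regions, of which 860 (82%) passed the fold toward shPHF19L#4. Of the EZH2 regions, 309 (12.8%) overlapped one, and these had a median EZH2 change of 1.53, against 1.12 for the others. They had a lower control level of EZH2, 5.39 against 6.25 (4.11 against 4.59 per kb), and more CpG, 6.54 against 4.88 per 100 bp. The overlap went from 1 of 224 regions with an EZH2 change under 0.75 to 169 of 366 (46.2%) with a change of at least 1.5. The H3K27me3 change itself was 0.97 in the 1 region of the lowest class. In the next class it had a median of 1.13, and 10 of 11 regions passed the fold. The remaining classes, with 40, 88 and 169 regions, had medians of 1.01, 1.07 and 1.11. Of their regions, 57.5%, 77.3% and 81.7% passed the fold. In the H3K27me3 peak lists, 1808 EZH2 regions (75.1%) had a peak in both shCTR replicates and a median EZH2 change of 1.13, whereas 206 had a peak in neither and a median of 1.43. Of those 206, 97 had a peak in both shPHF19L#4 replicates, against 84.3% of all regions. The median EZH2 change of these 97 was 1.38. FAM149A, IGLON5, NFATC1 and EFCC1, named above among the 10 largest changes, were among these 97 regions.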

How the data were processed

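EZH2 ChIP-seq of shCTR and shPHF19L#4 DU145 cells (2 replicates each) was taken from processed files. The authors mapped reads with Bowtie to hg19 (GRCh37), joined with fly dm3 for spike-in samples, called MACS peaks per replicate and ran DiffBind, whose version was not given in the sources used here. The log2 values are the authors' deposited group means of read concentration, not per length, and no spike-in scaling is stated for them. Peak scores are MACS values deposited by the authors. The tables' own columns of fold, P value and FDR compare the conditions and were not used. Members and gene lists were chosen with earlier results of these data known.

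Changes, medians and correlations were computed with Python 3.11.15, numpy 2.4.6, pandas 2.3.3 and scipy 1.17.1, and tested on simulated data. Genes came from GENCODE release 44 mapped to GRCh37, and bases were read with pysam 0.24.0 and samtools 1.23.1. Coordinates count from 1, and overlaps were at least 1 bp. Named regions were the extremes of change, level and width, overall and by promoter or distal position, the ChIP-qPCR genes with SHH and IGF2BP3, and the extremes of each gene list; all NPAS3 regions were added after values were seen. 5 genes that share a homeobox prefix only were left out of that list. Figures were drawn with matplotlib 3.10.9. Inputs and RNA-seq were not analysed here, and some genes of the lists are not reported here.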

Additional observations from a re-analysis of the deposited data

How the results depend on the processing

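Of 31 alternatives to 9 results, 26 were planned and 5 were added after the data were seen. A median, difference or correlation was taken as unchanged within 0.1, and a share within its exact 95% binomial interval; 24 values were unchanged by this measure. Without the lowest 5th of regions by control level, the share of regions with a change of at least 1 was 68.2% in place of 70.9%, and the correlation of change with control level was -0.09 in place of -0.23. That correlation was also -0.09 with the mean of both conditions on the x axis. The correlation of change with width reversed from -0.14 to 0.14 as the median within groups of like control level, but not in the highest 2 groups; the cause was not tested. The promoter minus distal difference was 0.03 within groups of CpG density, and that of the control level was 0.16 per kb in place of 0.41. The correlation with CpG density was 0.20 within groups of GC share. The difference between regions with and without a control EZH2 peak in both replicates was -0.09, and from -0.14 to -0.02 when a single replicate's list was used. No paired analysis was possible because the table holds group means only. For the same reason no replicate could be left out of the levels themselves, and the SUZ12, MTF2 and gene group values had no alternative. Depth is unknown, so counting error cannot be given.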

Other observations

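The genes with the most EZH2 regions, looked up after values were seen, were RBFOX3 (12), NPAS3 (11) and PLXNA4 (7). RBFOX3, which encodes the neuronal splicing factor NeuN, had all 12 regions away from protein-coding start sites, 2 of them with a change of at least 1. Their changes lay between 0.79 and 1.08 (median 0.89, against 1.16 over all regions), with 1.34 to 3.49 CpG per 100 bp and control levels from 5.55 to 7.19. PLXNA4, a semaphorin receptor gene of axon guidance, held 1 promoter and 6 gene body regions. Its promoter, with 4.52 CpG per 100 bp and a control level of 7.59, changed by 1.41. A gene body region of PLXNA4 changed by the same amount, 1.41, from a control level of 3.46 with 0.22 CpG per 100 bp, and the other 5 changed by 0.79 to 1.05. Large changes in CpG-poor sequence were thus found at a low control level here, as in the region far from POU3F2.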
